A study of Mus musculus with 5 samples.

Results

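The genes described here move, activate, make, lengthen and desaturate fatty acids in the mouse kidney cortex. Members were all rows whose gene symbol belongs to the *Acsl*, *Acsm*, *Acss*, *Acsf*, *Acsbg*, *Acot*, *Fabp* (without *Fabp4*), *Elovl*, *Fads* or *Scd* families, plus *Cd36*, *Fasn*, *Acaca*, *Acacb* and *Acly*. The rule uses names only and no measured value. It found 59 members among 24421 gene symbols. Of these, 46 had enough counts to be tested, which means at least 10 counts in at least 3 mice.

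Frozen pieces of kidney cortex were sequenced from 5 mice on a C57BL6J background, of which 8637, 9210 and 9121 were *Fnip1* null (*Fnip1*-/-, n = 3) and 9055 and 9056 wildtype (*Fnip1*+/+, n = 2). The null allele came from chemical mutagenesis of the germline with ENU, so its loss is not limited to a kidney cell type. The labels name no treatment and give neither age nor sex. In places the study's text calls the comparison tissue heterozygous and it counts more wildtype mice than the labels list, and the labels were followed. The counts labelled as mouse 9210 carry another mouse number in their own name, so that identity rests on the label. *Fnip1* encodes a partner of the tumor suppressor Folliculin and of the energy sensor AMPK. *Fnip1* itself had 20.98, 16.9 and 16.0 CPM (normalized counts scaled to a common library total) in null mice 8637, 9210 and 9121 and 51.8 and 48.7 in the wildtype mice, a log2 fold change of -1.48 ± 0.14 (SE, adjusted p = 0.033). Below, values of single mice are TMM-normalized CPM in that order, null mice 8637, 9210 and 9121 before wildtype mice 9055 and 9056. Means are ± SD (n = 3 null, n = 2 wildtype) and log2 fold changes, null against wildtype, are ± SE.

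Fatty acids enter cells partly through the membrane protein CD36, and small cytosolic binding proteins of the FABP family carry them. Acyl-CoA synthetases join them to coenzyme A, which activates them for oxidation or for building lipids, and acyl-CoA thioesterases undo that step. New fatty acid is built from citrate by ATP citrate lyase, acetyl-CoA carboxylase and fatty acid synthase, then lengthened by elongases and given double bonds by desaturases. Proximal tubule cells of the kidney cortex depend on fatty acid oxidation for most of their energy. Many of these genes respond to PPAR nuclear receptors, which bind a direct repeat of the hexamer AGGTCA, or to the sterol-responsive factor SREBP.

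The promoters of members were searched for that PPAR element, which several fatty acid genes share. The stretches that matched are shown, at greater length for *Fabp1* and *Acot12* because both are described below as changed by the exact test. The element was written as AGGTCA repeated after a gap of 1 base, on either strand, with up to 1 mismatch, within 250 bases before the RefSeq gene start (GRCm38.p6). The table held promoters for 48 members, 57 in all. A match was found for 4 members, *Fabp1*, *Acot12*, *Elovl1* and *Fads6*, or 7.02% of the members' promoters, with 0.484% of 32851 promoters of all genes holding 1. The shares are a description without a test. The matched stretch, in capitals with 8 flanking bases on each side, reads 5′ to 3′ on the gene's own strand as follows.
Fabp1 (chr6:71199804-71199832, plus strand): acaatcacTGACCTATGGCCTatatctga
Acot12 (chr13:91741403-91741431, plus strand): taggacccTGACCTCTCACCTcctaagca
Elovl1 (chr4:118429598-118429626, plus strand): ctaggcatTGACCTGTGGCCTggacccac
Fads6 (chr11:115297663-115297691, minus strand): ccccgcctAGGTCACGGGTCAtggctgtg
The match lies 67 to 55 bases before the RefSeq start of *Fabp1* and 110 to 98 bases before that of *Acot12*. The GENCODE starts, which the gene coordinates below follow, lie nearer to the match in both genes. The *Elovl1* match lies inside its GENCODE gene (chr4:118428093-118432953). The longer stretches before these genes are given with the matched bases in capitals, cut where the GENCODE gene begins. The stretch before *Fabp1* has a GC content of 41.4% and that before *Acot12* 68.9%.
Fabp1 (chr6:71199629-71199826, plus strand): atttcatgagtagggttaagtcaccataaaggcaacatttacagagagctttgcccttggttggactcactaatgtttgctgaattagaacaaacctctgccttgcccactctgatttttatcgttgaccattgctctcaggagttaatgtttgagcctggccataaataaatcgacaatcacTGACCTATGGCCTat
Acot12 (chr13:91741271-91741511, plus strand): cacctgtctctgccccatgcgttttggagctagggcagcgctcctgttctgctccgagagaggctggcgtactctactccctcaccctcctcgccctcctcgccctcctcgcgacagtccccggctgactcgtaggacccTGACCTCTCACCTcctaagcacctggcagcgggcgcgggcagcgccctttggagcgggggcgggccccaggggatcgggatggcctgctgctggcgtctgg
A match is a likeness of letters, and no binding was measured. The log2 fold changes of the 4 genes with a match were 6.20 for *Fabp1*, -1.03 for *Acot12*, -0.22 for *Elovl1* and 0.18 for *Fads6*.

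Some mice stood apart in ways the labels do not describe. Null mouse 9121 had 314 CPM of *Xist*, the RNA that silences an X chromosome in females, against 0.172 to 1.41 in the other 4 mice. Its summed CPM of the Y-linked genes *Ddx3y*, *Eif2s3y*, *Kdm5d* and *Uty* was 0.370, against 127 to 145 in the others, so mouse 9121 had the pattern of a female and the others that of males. Over the members, null mouse 8637 lay closer to the wildtype mice than to the other null mice. Its log2 CPM there correlated at 0.978 and 0.971 with wildtype 9055 and 9056 but at 0.907 and 0.794 with null 9210 and 9121. Over all genes the correlations were 0.988 and 0.986 with those wildtype mice and 0.987 and 0.974 with null 9210 and 9121. These are correlations across genes of single libraries and carry no test.

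Marker genes of several cell types also differed between mice, and in bulk tissue fewer cells of a type and less RNA per cell cannot be told apart. All 5 male-biased kidney genes (*Kap*, *Slco1a1*, *Cyp2e1*, *Cyp4a12a* and *Cyp4b1*) were lower in every null mouse, and their sum was 17760, 6792 and 5156 CPM in the null against 33150 and 37077 in the wildtype mice. Markers of the straight proximal tubule, the late part of that segment, summed to 2455, 1069 and 747 against 4337 and 4608 CPM. Of these 5 markers, *Slc7a13*, *Cyp7b1* and *Atp11a* were lower in every null mouse, whereas *Slc5a1* and *Slc22a19* overlapped between genotypes, *Slc22a19* with its highest value, 189 CPM, in mouse 9121. Both sums were already low in mouse 9210, whose Y-linked genes were expressed. The sum of 9 adipocyte markers was 63.4, 382 and 184 against 39.3 and 39.1 CPM, highest in mouse 9210. The defining fat gene *Adipoq* had 0.589, 22.1 and 8.98 against 0.497 and 1.32 CPM, and *Lep* did not exceed 0.422 CPM in any mouse. Genes of convoluted proximal tubule, loop, collecting duct and glomerulus were expressed in every mouse, with *Umod* at 5213 to 7918 CPM. Of 5 convoluted tubule markers, *Lrp2* and *Slc34a1* were lower in every null mouse, *Slc5a2* and *Slc5a12* were higher, and *Cubn* overlapped. *Lrp2* had 1931, 1380 and 1550 against 2325 and 2552 CPM. Podocyte markers summed to 557, 665 and 595 against 314 and 310 CPM, and collecting duct markers to 663, 1048 and 860 against 500.3 and 549. Of the collecting duct markers, *Aqp2*, *Hsd11b2* and *Atp6v1g3* were higher in every null mouse, whereas *Fxyd4* and *Slc26a4* overlapped between genotypes. Leukocyte markers summed to 83.4, 103 and 176 against 109 and 90.2 CPM, with *Csf1r* lower in every null mouse (38.2, 36.4 and 63.9 against 72.4 and 68.4 CPM). Of 8 leukocyte markers tested 7 were above 0 in log2 fold change (median 1.47), and the exact test called 5 higher, *Ptprc*, *Cd68*, *Adgre1*, *Itgam* and *Itgax*. Female-biased *Prlr* and *Cyp4a14* summed to 302, 570 and 699 against 44.9 and 66.2 CPM. Most of that sum was *Cyp4a14*, with 245, 458 and 470 against 23.6 and 48.0 CPM. The part of these lists in the results below was not tested.

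Of the 46 tested members, log2 fold changes were above 0 for 27 and below 0 for 19. Their median was 0.17, against 0.00 for all 13874 genes tested, and the median size regardless of sign was 0.41 against 0.22. A gene was called where it passed an FDR of 5% and changed 2-fold or more. By this rule edgeR's quasi-likelihood test called 2 members higher in *Fnip1* null mice (4.35%, against 0.404% of all genes tested), *Acss1* and *Acsf2*, and 0 lower (against 0.123%). At an unadjusted p under 0.05 the same test gave 12 higher (26.1%, against 14% of all genes) and 9 lower (19.6%, against 11.2%).

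Other tests called more members. The exact test of edgeR called 5 higher (10.9%, against 3.03% of all genes), adding *Fabp1*, *Acsl6* and *Elovl6*, and 3 lower (6.52%, against 1.04%), *Cd36*, *Acsm3* and *Acot12*. The likelihood ratio test also called 5 higher and 3 lower (10.9% and 6.52%, against 3.44% and 1.09% of all genes). DESeq2 called 6 higher and 1 lower (13% and 2.17%, against 2.64% and 0.872%). All null mice lay above both wildtype mice for 15 members (32.6%, against 22.9%) and below them for 13 (28.3%, against 23%). These 2 shares lie near those of all genes, whereas called members made up a larger share than called genes overall. With 3 against 2 mice a permutation test of a single gene cannot go below p = 0.1.

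Leaving out 1 mouse changed the calls. Without null mouse 8637 the quasi-likelihood test called 8 members higher and 5 lower. Of the 14130 genes tested in that fit it called 4.74% higher and 2.07% lower. The members were *Acot3*, *Acsf2*, *Acsl6*, *Acss1*, *Elovl2*, *Elovl6*, *Fabp1* and *Scd1*, and *Acot12*, *Acsm2*, *Acsm3*, *Acss2* and *Cd36*. Without null mouse 9121 it called *Acss1* and *Acsf2* higher (against 0.644% of 13980 genes) and *Acsm3* lower (against 0.329%). Without null 9210 or either wildtype mouse it called 0 members, and 0 of all genes. Mouse 8637 was the null mouse nearest the wildtype mean for 11 of the 15 members that lay higher and 12 of the 13 that lay lower, against 66.4% and 68.8% of all such genes.

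**Figure D1:**
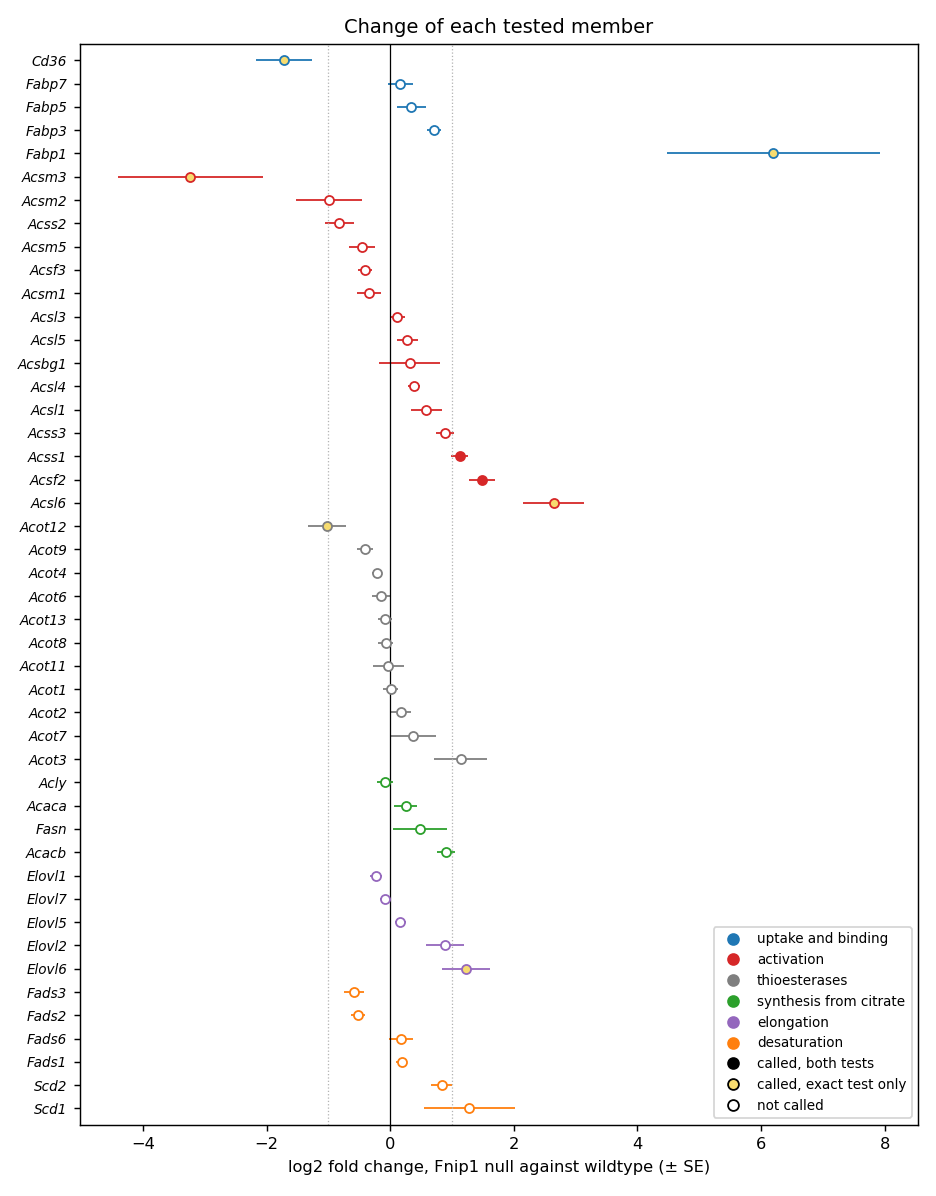
Log2 fold change (*Fnip1* null against wildtype, x axis) with its SE for each of the 46 tested members (y axis), grouped by role and ordered by size within a role. Filled points passed both tests, yellow points the exact test only, open points neither, and dotted lines mark a 2-fold change. *Acss1* and *Acsf2* are the 2 filled points, while *Fabp1* at 6.20 and *Acsm3* at -3.23 lie farthest out with the longest error bars.

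Among uptake and binding genes the fatty acid transporter fell and the liver-type binding protein rose by the exact test, while the heart-type binding protein was moderately higher. *Cd36* (chr5:17781690-17888801), which takes up long-chain fatty acids, had 410, 151 and 145 CPM in null against 754 and 795 in wildtype mice. All 3 null mice lay below both wildtype mice, with mouse 8637 between the other null mice and the wildtype. The means were 235 ± 152 and 775 ± 28.9, a log2 fold change of -1.72 ± 0.46 (adjusted p = 0.105 by the quasi-likelihood and 0.00675 by the exact test, 0.000942 to 0.565 over the alternatives). Leaving out mouse 9121 gave -1.47, and leaving out mouse 8637 gave -2.39. The straight tubule sum (2455, 1069 and 747 CPM in null mice) and the male-biased sum (17760, 6792 and 5156) were also lowest in mice 9210 and 9121. Per kilobase of exon, the level of *Cd36* in wildtype mice was 216 CPM and that of *Fabp3* 78.6 CPM.

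*Fabp1* (chr6:71199827-71205023), the fatty acid binding protein of hepatocytes and enterocytes, had 1.71, 65.9 and 91.1 CPM in null against 0.559 and 0.858 in wildtype mice. It was low in both wildtype mice, slightly above them in mouse 8637, and far higher in mice 9210 and 9121. The raw counts behind these values were 29, 1108 and 1725 against 9 and 15. The log2 fold change of 6.20 ± 1.73, 73.5-fold, was the largest among members (adjusted p = 0.111 by the quasi-likelihood and 0.0036 by the exact test, 0.000942 to 0.578 over the alternatives). Without mouse 9121 it was 5.55 and without mouse 8637 it was 6.77. A list of 8 hepatocyte genes summed to 266, 143 and 187 against 331 and 285 CPM, mostly *Apob*, and its sum was lower in mice 9210 and 9121. Within it *Ahsg*, *Cps1* and *Arg1* had 0 or 1 count in every mouse, albumin (*Alb*) had 12.6, 10.05 and 16.1 against 8.88 and 10.4 CPM, and the intestinal binding proteins *Fabp2* and *Fabp6* had 0 counts in all 5 mice. The summed adipocyte markers were higher in mouse 9210 than in mouse 9121, whereas *Fabp1* was higher in mouse 9121. The female-biased sum (302, 570 and 699 against 44.9 and 66.2 CPM) had the same order of null mice as *Fabp1*, and neither order was tested. Most of that sum was *Cyp4a14*, which is also among the PPAR targets described below.

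*Fabp3*, the heart-type binding protein, had 96.3, 108 and 111 CPM in null against 69.9 and 59.5 in wildtype mice. The groups did not overlap and the null mice agreed closely. The log2 fold change of 0.70 ± 0.11 stayed under 2-fold (adjusted p = 0.0602 by the quasi-likelihood and 0.000668 by the exact test). Without mouse 9121 it was 0.66. A near copy, *Fabp3-ps1*, shares 29.2% of the 50-base stretches of *Fabp3* transcripts. A read from these cannot be placed on a single gene by its own sequence. Reads were paired, so its mate may place it, and the reads lost were not measured. *Fabp5* and *Fabp7* had 4.97 to 10.1 CPM in all mice and overlapped between genotypes. *Fabp9* also had 0 counts in all mice, and *Fabp12* was at or below 0.114 CPM, under the 3 counts (0.158 to 0.186 CPM) taken as the limit of detection.

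**Figure D2:**
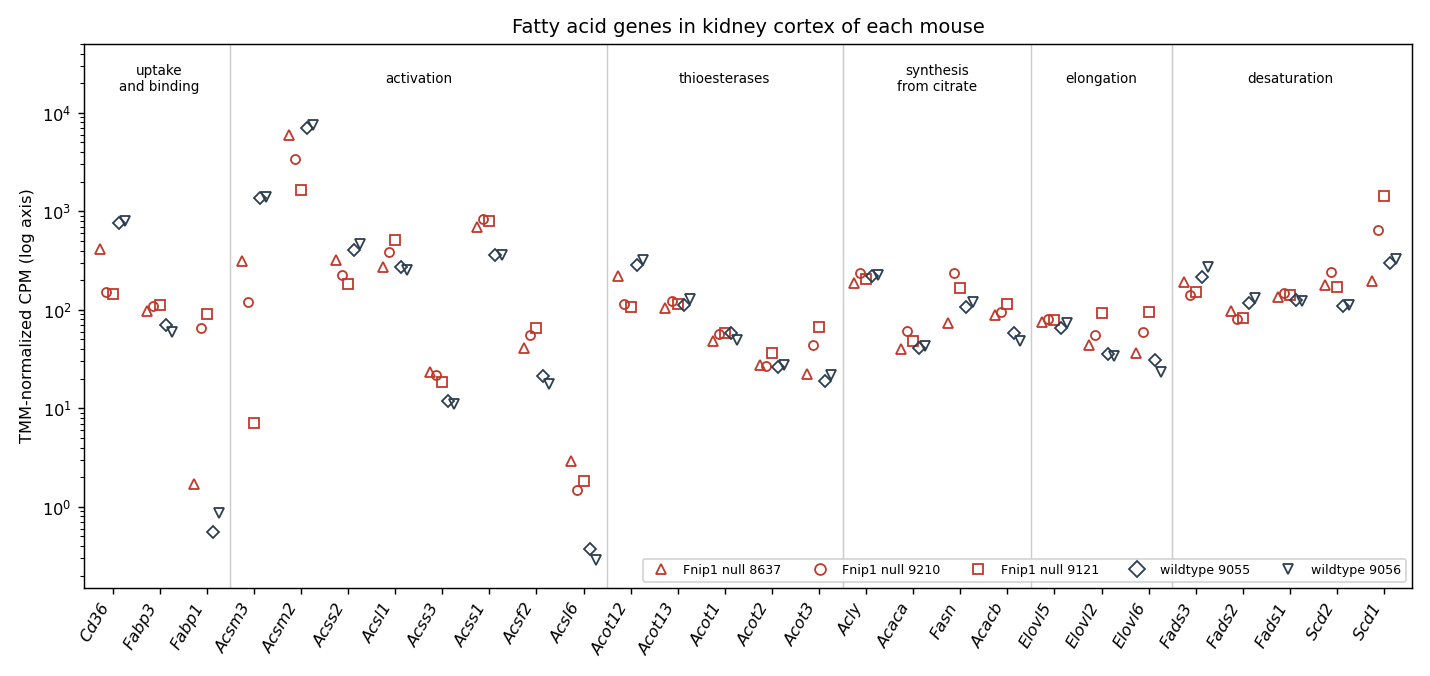
TMM-normalized CPM (y axis, log scale) of 28 members (x axis) in each mouse, with red open symbols for the 3 *Fnip1* null and dark symbols for the 2 wildtype mice. The wildtype mice lie close together for nearly every gene, while null mice spread most for *Fabp1* (1.71 to 91.1), *Acsm3* (7.08 to 313) and *Scd1* (195 to 1439).

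Activation genes changed in opposite directions. Of 15 tested synthetases, 9 had log2 fold changes above 0 and 6 below, and all null mice lay above both wildtype mice for 6 and below them for 5, where 22.9% and 23% of all genes did so. Acetate-, propionate- and medium-chain-activating enzymes that were higher were *Acss1*, *Acss3* and *Acsf2*. *Acss1* (chr2:150618105-150668500), the mitochondrial acetyl-CoA synthetase, had 700, 841 and 799 CPM in null against 359 and 358 in wildtype mice. It had the smallest SE of the 8 members called by either test, and its null mice lay well clear of the wildtype mice. The means were 780 ± 72.1 and 358 ± 0.81, a log2 fold change of 1.12 ± 0.13 (2.18-fold, adjusted p = 0.0378). Without mouse 9121 it was 1.10 (adjusted p = 0.0313), and without mouse 8637 it was 1.20. With 9210, 9055 or 9056 left out the size was 1.06 to 1.12, but the adjusted p no longer passed. The podocyte sum (557, 665 and 595 against 314 and 310 CPM) and the collecting duct sum had the same order of null mice as *Acss1*. Not every collecting duct marker was higher in null mice.

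*Acsf2* (chr11:94557102-94601871), a medium-chain acyl-CoA synthetase of mitochondria, had 41.3, 55.3 and 64.8 CPM in null against 21.1 and 17.5 in wildtype mice. Every null mouse was above both wildtype mice, and mouse 8637 was the lowest of them. The order of null mice was that of the female-biased sum, which was mostly *Cyp4a14*. The log2 fold change was 1.48 ± 0.21 (2.79-fold, adjusted p = 0.0495) and 1.32 without mouse 9121 (adjusted p = 0.0311). With library size only or upper quartile normalization its adjusted p was 0.0526 or 0.0523. The pseudogene *Gm5540* shares 33.3% of its 50-base stretches. *Acss3*, which activates propionate in mitochondria, had 23.4, 21.7 and 18.6 against 11.9 and 10.98 CPM. Its null mice were closely grouped. Its log2 fold change of 0.89 ± 0.15 lay under 2-fold (adjusted p = 0.0602 by the quasi-likelihood and 0.000322 by the exact test), at 0.98 without mouse 9121.

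The long-chain synthetases were higher or close to wildtype. *Acsl6* (chr11:54303798-54364756), best known from brain, had 2.95, 1.49 and 1.85 CPM in null against 0.373 and 0.286 in wildtype mice. Expression was low in every mouse, with 5 and 6 counts in the wildtype mice, and was highest in mouse 8637. The log2 fold change was 2.65 ± 0.50 (adjusted p = 0.0689 by the quasi-likelihood and 0.000184 by the exact test, 0.000135 to 0.544 over the alternatives), and 2.73 without mouse 9121. Unlike the straight tubule and male-biased sums, *Acsl6* was farthest from wildtype in mouse 8637. *Acsl6* lies close to the mutated gene *Fnip1* itself (chr11:54438199-54518235). An effect of the allele on its neighbor cannot be told apart from an effect of *Fnip1* loss and was not tested.

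*Acsl1*, the main long-chain synthetase of oxidative tissues and fat, had 275, 389 and 516 against 271 and 254 CPM. Mouse 8637 was barely above wildtype while the other null mice were clearly higher, and the log2 fold change of 0.59 ± 0.25 did not pass (adjusted p = 0.212). Without mouse 9121 it was 0.34. *Acsl4*, which prefers arachidonate, had 87.5, 87.7 and 76.4 against 63.3 and 64.8 CPM, a log2 fold change of 0.39 with no overlap and an adjusted p of 0.0991. *Acsl3*, *Acsl5* and *Acsbg1* overlapped between genotypes.

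Among the medium-chain synthetases of the *Acsm* cluster on chromosome 7, *Acsm3* fell by the exact test and the others were not called. *Acsm3* (chr7:119760923-119787513), a mitochondrial medium-chain synthetase, had 313, 121 and 7.08 CPM in null against 1362 and 1401 in wildtype mice. The wildtype mice were nearly equal, whereas the null mice differed widely, with the lowest value in mouse 9121. The log2 fold change was -3.23 ± 1.17 (adjusted p = 0.164 by the quasi-likelihood and 0.0463 by the exact test, 0.0376 to 0.59 over the alternatives). Without mouse 9121, which leaves 4 mice with expressed Y-linked genes, it was -2.67 ± 0.41 (adjusted p = 0.0401). The straight tubule sum (2455, 1069 and 747 against 4337 and 4608 CPM) and the male-biased sum (17760, 6792 and 5156 against 33150 and 37077) had the same order of null mice. Within those lists *Slc7a13* reached 4.17 CPM in mouse 9121, while *Slc22a19* was highest there. The gene *Eri2* shares 34% of the 50-base stretches of *Acsm3*.

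*Acsm2* was the most highly expressed member, with 6001, 3393 and 1659 CPM in null against 7076 and 7580 in wildtype mice. Per kilobase of exon it had 987 CPM in wildtype mice, and *Acsm3* came next with 280. All null mice were below both wildtype mice, but mouse 8637 by little, and the log2 fold change of -0.99 ± 0.53 did not pass (adjusted p = 0.293). It was -0.64 without mouse 9121 and -1.53 without mouse 8637. *Acsm5*, also at this locus, had 158, 112 and 94.8 against 159 and 176 CPM, and *Acsm1* overlapped between genotypes with 213, 159 and 246 against 233 and 291.

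*Acss2*, the acetyl-CoA synthetase of cytosol and nucleus, had 324, 225 and 182 CPM in null against 404 and 461 in wildtype mice. All null mice were lower, opposite to its mitochondrial relative *Acss1*. The log2 fold change of -0.83 ± 0.24 lay under 2-fold (adjusted p = 0.114 by the quasi-likelihood and 0.0276 by the exact test). Without mouse 9121 it was -0.66. *Acsf3*, which activates malonate in mitochondria, had 84.9, 70.8 and 70.3 against 94.3 and 106 CPM, a log2 fold change of -0.41. *Acsbg2*, *Acsm4* and the antisense transcript *Acss2os* had 0 counts in all mice.

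**Figure D3:**
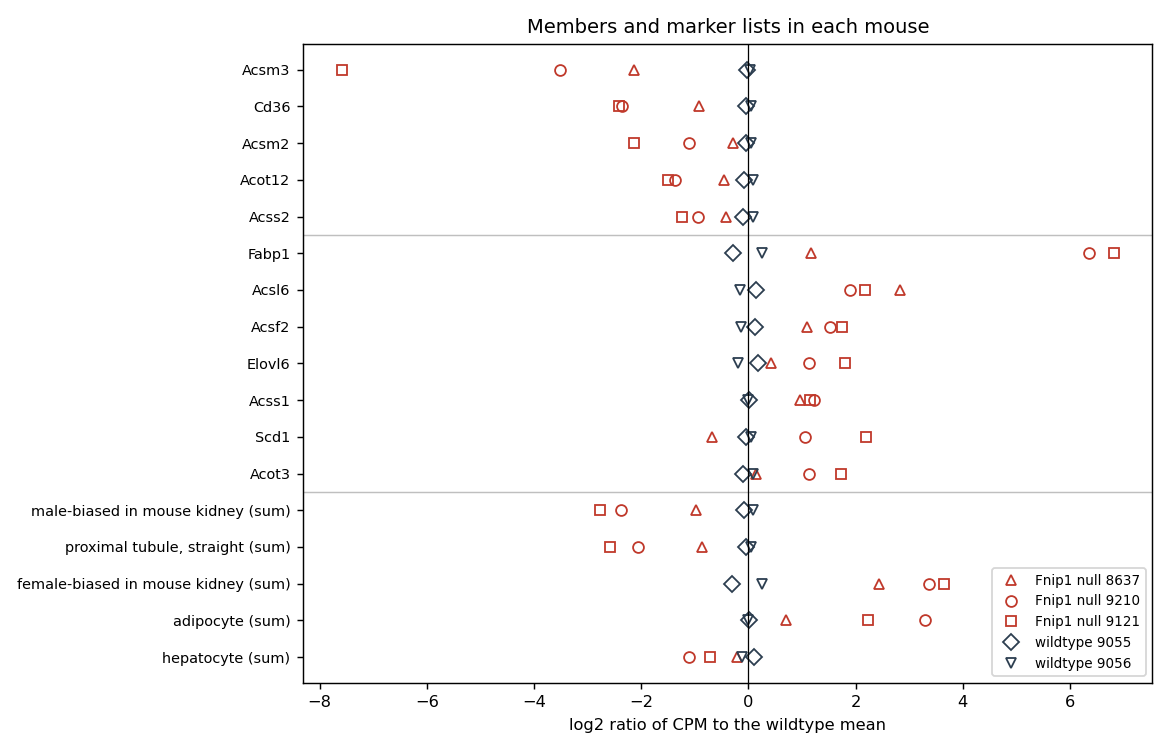
Log2 ratio of CPM to the wildtype mean (x axis) of each mouse for 5 members below and 7 above wildtype on average, and for the summed CPM of 5 marker lists (y axis). In *Acsm3*, *Cd36*, *Acsm2*, *Acot12* and *Acss2*, and in the male-biased and straight tubule sums, mouse 8637 (triangles) lies nearest wildtype and mouse 9121 (squares) farthest, while the adipocyte sum is highest in mouse 9210 (circles).

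Most thioesterases differed little. Of 11 tested, 4 had log2 fold changes above 0 and 7 below, with a median of -0.07. *Acot12* (chr13:91741512-91786148), the cytosolic enzyme that hydrolyzes acetyl-CoA, was the exception past the exact test. It had 219, 116 and 106 CPM in null against 282 and 317 in wildtype mice, with mouse 8637 nearest to wildtype. The log2 fold change was -1.03 ± 0.31 (adjusted p = 0.124 by the quasi-likelihood and 0.0274 by the exact test, 0.00374 to 0.588 over the alternatives). It was -0.84 without mouse 9121 and -1.43 without mouse 8637.

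*Acot3*, a peroxisomal thioesterase, had 22.3, 44.2 and 67.6 CPM in null against 19.0 and 21.6 in wildtype mice. Mouse 8637 was at the wildtype level, and the log2 fold change of 1.14 ± 0.43 passed neither edgeR test on all mice (adjusted p = 0.173), although DESeq2 called it. Without mouse 9121 it was 0.71. *Acot1* and *Acot2*, its cytosolic and mitochondrial neighbors on chromosome 12, did not follow it. *Acot1* had 48.0, 56.4 and 57.7 against 57.8 and 49.9 CPM, and *Acot2* had 27.5, 26.9 and 36.6 against 26.3 and 27.7. Their log2 fold changes were 0.00 ± 0.12 and 0.17 ± 0.16. Genes of this cluster resemble each other, and 24.5% of the 50-base stretches of *Acot2* also occur in *Acot1*. *Acot13*, a small mitochondrial thioesterase with 163 CPM per kilobase in wildtype mice, had 105, 122 and 115 against 112 and 130 CPM, with overlap.

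The remaining thioesterases were not called. Both wildtype mice exceeded all null mice for *Acot4*, *Acot6* and *Acot9*, with log2 fold changes of -0.22, -0.15 and -0.41. *Acot7*, *Acot8* and *Acot11* overlapped between genotypes, and *Acot7* was highest in mouse 9121, with 18.3, 16.8 and 37.6 against 16.5 and 21.1 CPM. *Acot5* and *Acot10* stayed at or below 0.648 CPM and were not tested.

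In the synthesis of fatty acid from citrate, all null mice lay above both wildtype mice for 1 of 4 enzymes, a share close to the 22.9% of all genes. This was *Acacb*, the carboxylase that makes malonyl-CoA at mitochondria, with 88.2, 95.8 and 116 CPM in null against 58.5 and 48.5 in wildtype mice. The null mice were all higher, and the log2 fold change of 0.90 ± 0.15 lay under 2-fold (adjusted p = 0.0635 by the quasi-likelihood and 0.000158 by the exact test). It was 0.78 without mouse 9121. *Acaca*, the cytosolic carboxylase that supplies malonyl-CoA for synthesis, had 39.8, 61.0 and 48.4 against 40.6 and 43.1 CPM (log2 fold change 0.25 ± 0.18). For *Acaca* the groups overlapped.

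*Acly* and *Fasn* did not separate the genotypes. *Acly*, which splits citrate to give acetyl-CoA, had 186, 238 and 206 against 220 and 225 CPM, a log2 fold change of -0.08 ± 0.12 that turned to 0.08 without TMM. *Fasn*, fatty acid synthase, had 73.0, 236 and 167 against 108 and 119 CPM. Mouse 8637 was below and mice 9210 and 9121 above both wildtype mice, a log2 fold change of 0.48 ± 0.44 (adjusted p = 0.518). It was 0.08 without mouse 9210, 0.44 without mouse 9121 and 0.83 without mouse 8637. *Fasn* was highest in mouse 9210, the mouse with the highest adipocyte sum of 382 CPM, and a link between them was not tested.

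Among elongases, *Elovl6* rose by the exact test, and *Elovl6* and *Elovl2* differed more between null mice than the other tested elongases. *Elovl6* (chr3:129532355-129638495), which lengthens palmitate to stearate, had 36.4, 59.5 and 94.7 CPM in null against 30.6 and 23.6 in wildtype mice. All null mice were higher, mouse 8637 by little. The log2 fold change was 1.23 ± 0.39 (adjusted p = 0.132 by the quasi-likelihood and 0.0322 by the exact test, 0.0134 to 0.594 over the alternatives), falling to 0.82 without mouse 9121. *Elovl2*, which lengthens polyunsaturated fatty acids, had 43.7, 56.1 and 91.9 against 35.5 and 33.8 CPM, a log2 fold change of 0.88 ± 0.30 (adjusted p = 0.151) and 0.53 without mouse 9121. Both were highest in mouse 9121 and lowest among null mice in mouse 8637, as was the female-biased sum, mostly *Cyp4a14*. A link between them was not tested.

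*Elovl5*, the elongase of shorter polyunsaturated fatty acids, had 75.1, 80.5 and 79.5 against 65.6 and 74.2 CPM, a log2 fold change of 0.16 ± 0.09. Null mice were above both wildtype mice by a small margin. *Elovl1* was slightly lower in all null mice (log2 fold change -0.22), *Elovl7* overlapped, and *Elovl3* and *Elovl4* were at or below 0.317 CPM.

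*Scd1*, the stearoyl-CoA desaturase that makes oleate, had 195, 650 and 1439 CPM in null against 302 and 326 in wildtype mice. Mouse 8637 lay below both wildtype mice and mouse 9121 far above them, so the groups overlapped. The means of 761 ± 629 and 314 ± 16.6 gave a log2 fold change of 1.28 ± 0.73 (adjusted p = 0.319). It was 0.43 without mouse 9121 and 1.73 without mouse 8637. *Scd2*, a related desaturase, separated the genotypes with 179, 241 and 170 against 109 and 113 CPM. Its log2 fold change of 0.83 ± 0.17 lay under 2-fold (adjusted p = 0.0738 by the quasi-likelihood and 0.00256 by the exact test), at 0.93 without mouse 9121. *Scd3* and *Scd4* were at or below 0.621 CPM.

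The desaturases of polyunsaturated synthesis lie side by side on chromosome 19 and did not move together. *Fads1* had 136, 149 and 143 against 127 and 124 CPM, a log2 fold change of 0.18 ± 0.09 with all null mice higher. *Fads2* had 98.1, 80.6 and 82.6 against 117 and 132 CPM, with all null mice lower. Its log2 fold change was -0.52 ± 0.12 (adjusted p = 0.0871 by the quasi-likelihood and 0.0218 by the exact test). *Fads3*, whose role is less clear, had 191, 142 and 153 against 218 and 269 CPM. Its log2 fold change was -0.59 ± 0.16 (adjusted p = 0.108 by the quasi-likelihood and 0.0399 by the exact test). None of the 3 reached 2-fold, and *Fads6* overlapped between genotypes.

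**Figure D4:**
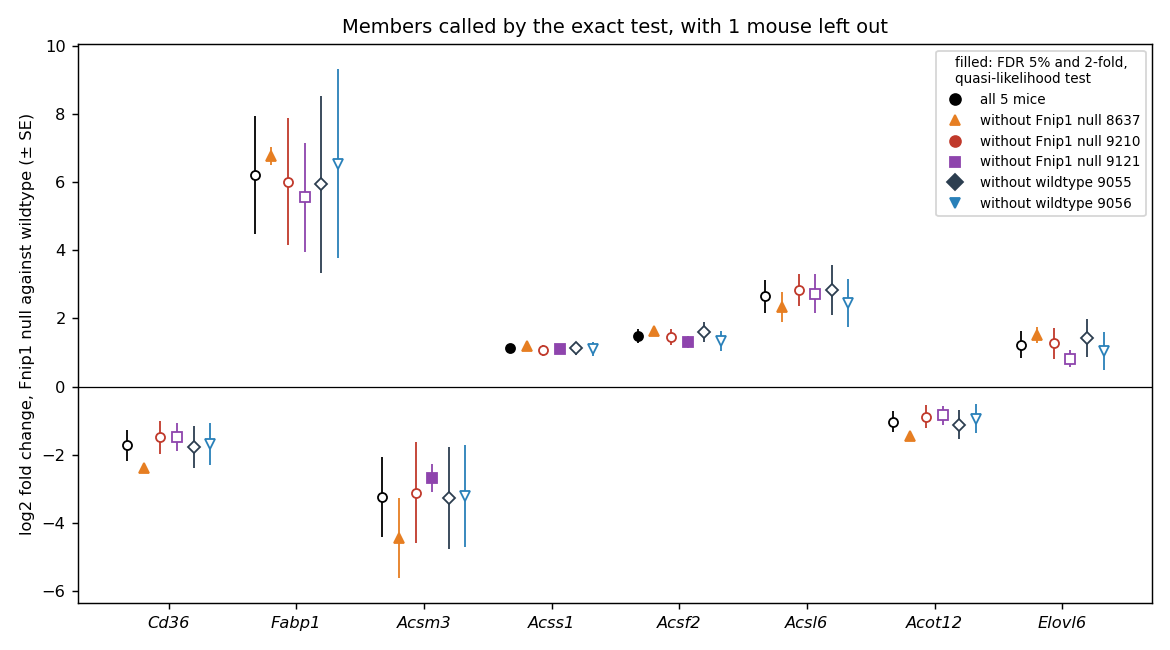
Log2 fold change (y axis, ± SE) of the 8 members called by the exact test (x axis), from the quasi-likelihood fit on all 5 mice and with each mouse left out. Filled symbols passed an FDR of 5% and 2-fold. *Acss1* stays between 1.06 and 1.20, *Fabp1* between 5.55 and 6.77, and *Acsm3* between -4.43 and -2.67.

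Genes around these members changed in few cases. Of 16 regulators of lipid synthesis and oxidation, 7 had log2 fold changes above 0 and 9 below, with a median of -0.07, and the quasi-likelihood test called 0 while the exact test called 1. That gene, the lipogenic cofactor *Thrsp*, had 5.66, 29.9 and 14.9 against 4.29 and 3.95 CPM, highest in mouse 9210 like the adipocyte sum. *Srebf1*, which encodes SREBP1, had 40.6, 54.5 and 52.7 against 41.6 and 45.0 CPM, and *Ppara* had 286, 200 and 189 against 266 and 266. For both of these the genotypes overlapped.

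Of 22 tested PPAR targets outside the members, 7 had log2 fold changes above 0 and 15 below (median -0.19). *Cyp4a14*, an omega-hydroxylase that is also female-biased in mouse kidney, was called higher by both tests with 245, 458 and 470 against 23.6 and 48.0 CPM. The peroxisomal oxidation gene *Ehhadh* had a log2 fold change of -0.83, with all null mice below both wildtype mice, and was not called.

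Of 19 tested genes of uptake, esterification and lipolysis, 7 had log2 fold changes above 0 and 12 below. The exact test called the lipase gene *Mgll* higher (95.5, 174 and 187 against 64.2 and 63.3 CPM) and lipoprotein lipase *Lpl* lower (765, 489 and 559 against 1612 and 1725 CPM). *Slc27a2*, the main fatty acid transport protein of the proximal tubule, had 4049, 2370 and 2547 against 4716 and 5710 CPM and was not called. Of 5 genes that supply NADPH and citrate, malic enzyme *Me1* fell by the exact test with 572, 374 and 282 against 856 and 993 CPM. The other 4 had log2 fold changes of -0.31 to 0.01.

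The share of all gene counts held by the 59 members was 1.09%, 0.943% and 0.857% in null mice against 1.28% and 1.30% in wildtype mice. The null mice were all below the wildtype mice, mouse 9121 farthest, the same order as in *Acsm2*, the member with the most counts. *Acsm2* alone had 101831, 57072 and 31411 counts in null mice against 113884 and 132523 in wildtype mice. The share therefore weighs that gene most and does not describe the members as a set. Of 46 tested members, 27 had log2 fold changes above 0.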

How the data were processed

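RNA of frozen cortical kidney tissue was made into TruSeq libraries. Per the submitters' processing notes the authors used bcl2fastq 1.8.2 (the study's methods name another release), TopHat2 2.1.0, the build mm10 and HTSeq 0.6.1. They deposited raw counts per gene symbol, 15799114 to 19132145 gene counts per mouse. Rows that name no gene held 39.0% to 42.8% of the entries and were left out of totals and tests. Reads placed at more than 1 site were not counted, which lowers genes with near copies.

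Genes with fewer than 10 counts in more than 2 mice were left out, which kept 13874. They were tested with edgeR 4.0.16, run under R 4.3.3 beside limma 3.58.1. The steps were TMM, the quasi-likelihood test, Benjamini-Hochberg adjustment over all genes tested, and a call at an FDR of 5% and 2-fold. The SE is the log2 fold change divided by the root of its F statistic. The scripts were tested on simulated counts. Alternatives were DESeq2 1.42.0, the likelihood ratio and exact tests of edgeR, its older quasi-likelihood method, another normalization or filter, and each mouse left out in turn. Coordinates are GENCODE M21 (GRCm38), promoters RefSeq. Shared sequence was measured as 50-base stretches of GENCODE transcripts found in other genes on either strand. This measure does not separate near copies elsewhere from genes that overlap at the same locus.

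Members, roles and lists were chosen with earlier results of these data known, and the hepatocyte list after *Fabp1* had been seen. Members described by mouse were those called by the quasi-likelihood or exact test, those the study names, those with groups that do not overlap and at least a 1.5-fold change, the key enzymes of each role and the 3 with the highest CPM per kilobase. Other genes named were chosen after their values were seen.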

Additional observations from a re-analysis of the deposited data

How the results depend on the processing

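Members called higher by the quasi-likelihood test, 2 on all mice, numbered 5 by the exact test, 5 by the likelihood ratio test, 6 by DESeq2 and 1 with upper quartile normalization, and 0 to 8 with 1 mouse left out. Members called lower, 0 on all mice, numbered 3, 3 and 1 by those 3 tests and 0 to 5 with 1 mouse left out. By the exact test, 5 higher became 2 (without wildtype 9056) to 8 (without null 8637), and 3 lower became 0 (without null 9210 or either wildtype mouse) to 5 (without null 8637). Of all genes tested the exact test called 3.03% higher and 1.04% lower on all mice, 6.74% and 2.4% without null 8637, and 0.686% and 0.261% without wildtype 9056, with 0.471% lower without null 9210 and 0.58% without wildtype 9055. Counts of members whose groups do not overlap stayed within 1.5 times of 15 and 13 under each normalization and filter tried. Of 406 log2 fold changes of named genes under alternatives, 399 kept their direction. The others were *Acly* at 0.0838 and *Acot13* at 0.0816 with library size only, *Acot1* at -0.00757 without a filter, and *Acot1* at -0.102 to 0.111 and *Acot13* at -0.194 to 0.0202 with 1 mouse left out. Library size only shifted the median of all genes to 0.17. The cause of these changes was not tested. No paired analysis was possible because the genotypes share no replicate numbers. With 5 mice the spread is estimated from few degrees of freedom, and the depth does not resolve levels under 0.158 to 0.186 CPM.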
